A study of Homo sapiens with 6 samples.

Results

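The IL-1 family cytokines and receptors were followed in RNA sequencing of LX-2 cells as 9 genes chosen by name, out of 60605 genes with an Ensembl identifier. They are the IL-1 ligands IL1A and IL1B, the receptor antagonist IL1RN, the related ligands IL18 and IL33, the receptor subunits IL1R1, IL1RAP and IL1RL1, and the protease CASP1. LX-2, a line of human hepatic stellate cells, was cultured for 24 h in medium that HCT116 colorectal cancer cells had conditioned. In 3 libraries (Vector-CM) the HCT116 cells held an empty vector, and in the other 3 (FGFBP1-CM) they overexpressed FGFBP1, a secreted protein that binds and releases fibroblast growth factors. All 6 libraries came from LX-2 grown in DMEM with serum, with no genetic change of LX-2 in the labels of either group. The question put to the data was whether transcripts of the IL-1 system in stellate cells differed with FGFBP1 in the tumor cell medium.

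IL-1 alpha and IL-1 beta bind IL1R1, which pairs with the accessory chain IL1RAP and passes the signal through MyD88 and IRAK kinases to NF-kB and MAP kinases, while the antagonist encoded by IL1RN occupies the same receptor without signaling. IL-33 uses IL1RL1 with the same accessory chain, and IL-18 uses a receptor pair of its own. IL-1 beta and IL-18 are made as precursors that caspase-1 cleaves in inflammasomes, so the transcript level is not the amount of active cytokine. In liver, activated stellate cells are known to respond to IL-1 with chemokines and matrix metalloproteinases.

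None of the 7 members with enough counts for a test passed an adjusted p of 0.05 in edgeR, and the remaining members, IL1RN and IL18, were below the count filter. The member with the largest difference was IL1B, whose mean was 1.32-fold higher in FGFBP1-CM (95% interval 1.10 to 1.59) with an adjusted p of 0.104. Its group ranges overlapped. IL1R1, IL1RAP, CASP1 and IL33 had log2 fold changes from -0.07 (IL33) to 0.06 (IL1R1). Levels within the family spanned from IL1B, at a mean of 20.5 FPKM, to IL1RN, at 0.0547 FPKM, where FPKM is the count scaled to gene length and depth.

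Most members lie on chromosome 2 in GENCODE release 29 (GRCh38). IL1A (ENSG00000115008) spans 112773915 to 112784590 on the minus strand with 7 exon blocks, IL1B (ENSG00000125538) spans 112829751 to 112836903 on the minus strand with 6, and IL1RN (ENSG00000136689) spans 113107214 to 113134016 on the plus strand with 12. The receptor genes IL1R1 (ENSG00000115594; 102064544 to 102179874, 18 exon blocks) and IL1RL1 (ENSG00000115602; 102311502 to 102352037, 15 exon blocks) lie on the plus strand of the same chromosome. IL1RAP (ENSG00000196083) is on chromosome 3 from 190514051 to 190659750, and IL33 (ENSG00000137033) on chromosome 9 from 6215786 to 6257983, both on the plus strand. IL18 (ENSG00000150782; 112143251 to 112164117) and CASP1 (ENSG00000137752; 105025443 to 105035250) are on the minus strand of chromosome 11. The exons of IL1RL1 share 95 bp with IL18R1 on the same strand, those of IL1RAP share 535 bp with the non-coding gene AC108747.1, and those of IL1R1 share 11 bp with an antisense gene. On the same strand, reads in the shared stretches cannot be told apart by gene, and for the antisense overlap strand use in counting was not stated. In the pathway names deposited with the table, 8 of the 9 members, all but CASP1, belonged to cytokine-cytokine receptor interaction.

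Promoter sequence was read for the members because the study's proposed signaling chain includes the transcription factor EGR1. RefSeq windows (GRCh38.p14) of 250 bases before an annotated start were found for 7 members, and IL18 and CASP1 had none. Short motifs were searched on both strands. The EGR1 motif GCGNGGGCG occurred in 1 of 15 member windows, at 1 of 4 annotated starts of IL1R1, and in 8.41% of 35116 windows of all genes. The C/EBP motif TTNNGCAA occurred in the IL1B window alone among the members and in 9.05% of all windows. The NF-kB motif was found in 1 window of IL1RN (1.73% of all windows), the AP-1 motif TGANTCA in 4 windows of IL1A, IL1RL1 and IL1RN (6.57%), and TATAAA in 4 windows of IL1A, IL1R1, IL1RL1 and IL1RN (10.72%). The IL1B window is shown because IL1B had the largest difference, and the IL1R1 window because it held the EGR1 letters. Both run 5′ to 3′ along the gene's strand, capitals mark the matched letters, which lie on the opposite strand in both, and neither match overlapped another of the 5 motifs.
IL1B, chr2:112836780-112837029, minus strand: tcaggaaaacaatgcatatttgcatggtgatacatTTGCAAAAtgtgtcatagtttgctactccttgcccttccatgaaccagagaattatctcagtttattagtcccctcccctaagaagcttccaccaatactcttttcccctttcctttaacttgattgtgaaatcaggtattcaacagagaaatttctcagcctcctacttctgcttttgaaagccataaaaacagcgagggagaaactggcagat
IL1R1, chr2:102142496-102142745, plus strand: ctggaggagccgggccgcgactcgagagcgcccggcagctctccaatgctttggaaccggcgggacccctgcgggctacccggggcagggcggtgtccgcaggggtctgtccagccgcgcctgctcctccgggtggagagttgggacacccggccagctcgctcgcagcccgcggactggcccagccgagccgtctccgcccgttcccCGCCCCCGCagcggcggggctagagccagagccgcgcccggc
The match began 215 bases before the IL1B start and 42 bases before the IL1R1 start. A match is a run of letters and was not tested for binding.

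Total counts ranged from 14003780 to 18508113 per library, and a count of 0 allows up to 3 counts, or 0.158 to 0.217 CPM (counts relative to scaled depth). Of the variance between libraries, 43.5% lay on the first principal component, and FGFBP1-CM replicate 1 was farthest along it at 38.1, with the other FGFBP1-CM libraries at 4.73 and 4.96 and the Vector-CM libraries between -18.3 and -12.9. Of the stellate markers, COL1A1, COL1A2, COL3A1, VIM, TIMP1, PDGFRB, ACTA2 and TAGLN were detected. LRAT had 0 counts in every library and DES had 0 to 4. TIMP1, which encodes an inhibitor of metalloproteinases, fell in FGFBP1-CM (log2 fold change -0.38, adjusted p = 0.0465, edgeR). All 8 tested stellate markers were below 0, only TIMP1 passed, and TAGLN was lowest (-0.62, adjusted p = 0.0568, edgeR). The 10 stellate markers summed to 3073 to 3289 CPM in Vector-CM and 2483 to 2877 CPM in FGFBP1-CM. Most of the sum was VIM, with means of 2591 and 2160 CPM. Of the 10 hepatocyte markers 5 were tested, and ALB, FGA and APOB fell (adjusted p under the threshold, edgeR), where 0.0658% of all tested genes were called lower. These calls rest on few reads per library, 7 to 65 for ALB, 0 to 16 for FGA and 3 to 59 for APOB. TF (-1.86) and SERPINC1 (0.46) did not pass, and the list summed to 9.16 to 12.1 CPM against 1.84 to 2.45 CPM. The part of these shifts in the values below was not tested. In bulk RNA, fewer cells of a type and less RNA per cell cannot be told apart. No label says that replicates came from separate cultures, so p-values measure only the spread between these libraries.

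IL1B encodes IL-1 beta, the secreted IL-1 of inflammation. Its levels were 51.0, 60.4 and 48.7 CPM in Vector-CM replicates 1 to 3 and 85.7, 67.7 and 57.4 CPM in FGFBP1-CM replicates 1 to 3. FGFBP1-CM replicates 1 and 2 were above every Vector-CM library, and FGFBP1-CM replicate 3 was below Vector-CM replicate 2. The group means were 53.4 ± 6.20 and 70.3 ± 14.3 CPM (SD, n = 3), behind which stood 723 to 1625 reads per library. The log2 fold change was 0.40 (SE 0.124, 95% interval 0.13 to 0.67) with a p of 0.00634 before adjustment and 0.104 after adjustment over 16707 genes (edgeR). IL1B was thus 1 of 7 tested members with an unadjusted p under 0.05, where 21.7% of all tested genes had one, 11.1% in the higher and 10.7% in the lower direction.

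Past the adjusted threshold stood 0 of 7 members in either direction. Of all tested genes, 0.12% passed it, 0.0539% higher and 0.0658% lower in FGFBP1-CM. The call on IL1B depended on the processing. Without a filter on low counts its adjusted p was 9.02e-05 (edgeR), in a fit that called 2.19% of genes higher. That fit estimated infinite prior degrees of freedom, against 9.32 in the main fit, so each gene was given a spread shared between genes. The same limit holds for every unfiltered p-value below. In DESeq2 the adjusted p of IL1B was 0.0429, where 2.51% of genes were called higher. Leaving out FGFBP1-CM replicate 3 gave a log2 fold change of 0.53 with an adjusted p of 0.0294 (edgeR), and 1.57% of genes were called higher. Leaving out FGFBP1-CM replicate 1, the library farthest from the others, gave 0.23 with an adjusted p of 0.238. In all 16 alternatives the log2 fold change of IL1B was above 0, from 0.23 to 0.53, and it passed the threshold in 3.

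**Figure D1:**
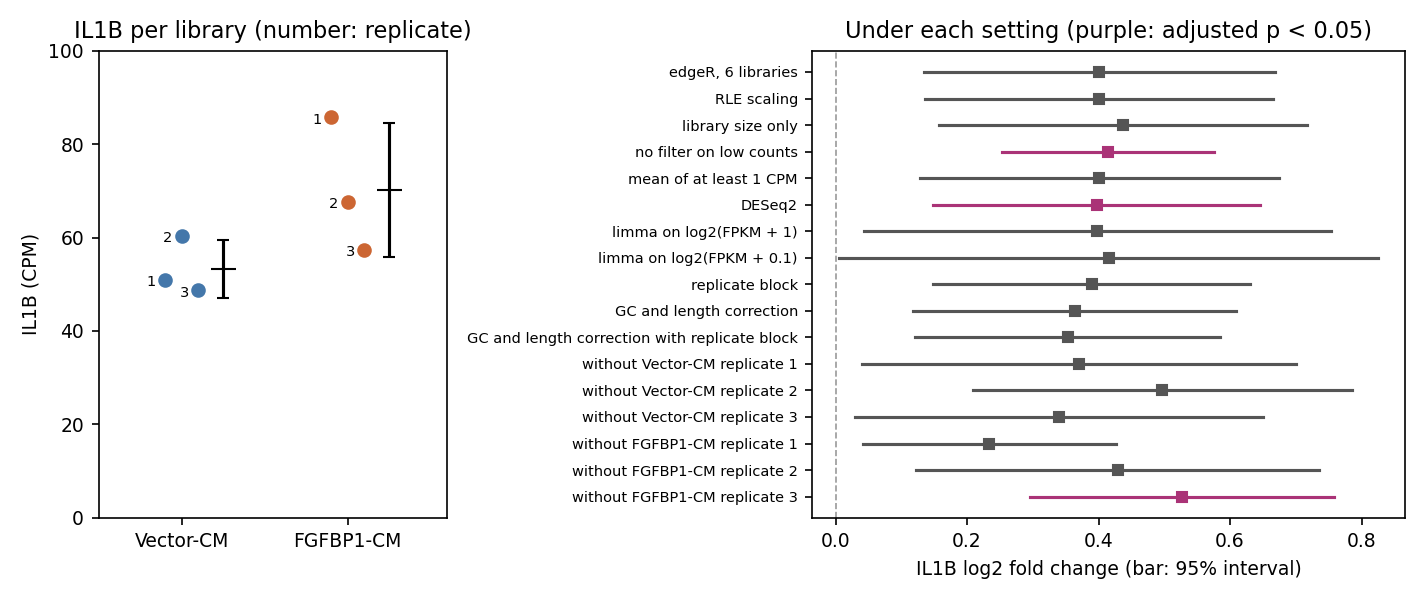
IL1B levels and their change. The left plot gives IL1B in CPM for each library, numbered by replicate, with the mean and SD of each group as a bar, and the right plot gives the IL1B log2 fold change of FGFBP1-CM over Vector-CM with its 95% interval in the edgeR test and in 16 alternatives, purple where the adjusted p is under 0.05. Every interval lies above 0, and the lowest estimate, 0.23, is the one without FGFBP1-CM replicate 1.

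IL1A encodes IL-1 alpha, the form that is active without caspase-1 and acts as an alarm signal from damaged cells. It was read at 2.35, 2.75 and 3.23 CPM in Vector-CM and 3.22, 3.33 and 2.69 CPM in FGFBP1-CM. These ranges overlapped, and only 38 to 61 reads per library stood behind them. The log2 fold change was 0.16 (SE 0.197, 95% interval -0.27 to 0.58; adjusted p = 0.676, edgeR). It was 0.04 without Vector-CM replicate 1, 0.28 without Vector-CM replicate 3, 0.10 without FGFBP1-CM replicate 2 and 0.24 without FGFBP1-CM replicate 3. Per length, IL1B was 14.6, 14.7 and 10.1 times as high as IL1A in the Vector-CM libraries and 17.9, 13.6 and 14.3 times in the FGFBP1-CM libraries. On the log2 scale this ratio averaged 3.69 ± 0.310 in Vector-CM and 3.92 ± 0.208 in FGFBP1-CM (SD, n = 3). The difference of 0.23 had a p of 0.6 in a two-sided exact permutation test, whose smallest possible p with 3 libraries against 3 is 0.1. The difference was 0.05 without Vector-CM replicate 3 and 0.11 without FGFBP1-CM replicate 1.

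IL1RN, the antagonist, was close to absent in these libraries. It had 4, 5 and 1 reads in Vector-CM and 2, 3 and 2 reads in FGFBP1-CM, which summed to 10 and 7. The ratio of the summed counts, relative to scaled depth, was 0.636 (exact 95% interval 0.206 to 1.85, counting error only). No direction could be read at this depth, and the ratio of antagonist to agonist was not computed.

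IL33 encodes an alarm cytokine that is stored in the nucleus. Its levels were 14.1, 14.3 and 13.9 CPM in Vector-CM and 13.2, 13.7 and 13.2 CPM in FGFBP1-CM. Every FGFBP1-CM library lay below every Vector-CM library, but in FPKM the ranges, 4.16 to 4.32 and 4.08 to 4.20, overlapped. The log2 fold change was -0.07 (SE 0.0973, 95% interval -0.28 to 0.14; adjusted p = 0.694, edgeR). IL33 was the only tested member whose CPM ranges did not overlap between groups, and 13.2% of all tested genes were separated in that direction and 12.8% in the higher direction.

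IL18 encodes the other cytokine cleaved by caspase-1. It had 4, 12 and 4 reads in Vector-CM and 12, 5 and 6 reads in FGFBP1-CM. Both groups thus held libraries at either end of the range. The sums of 20 and 23 reads gave a ratio of 1.05 relative to scaled depth (exact 95% interval 0.549 to 2.01, counting error only).

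**Figure D2:**
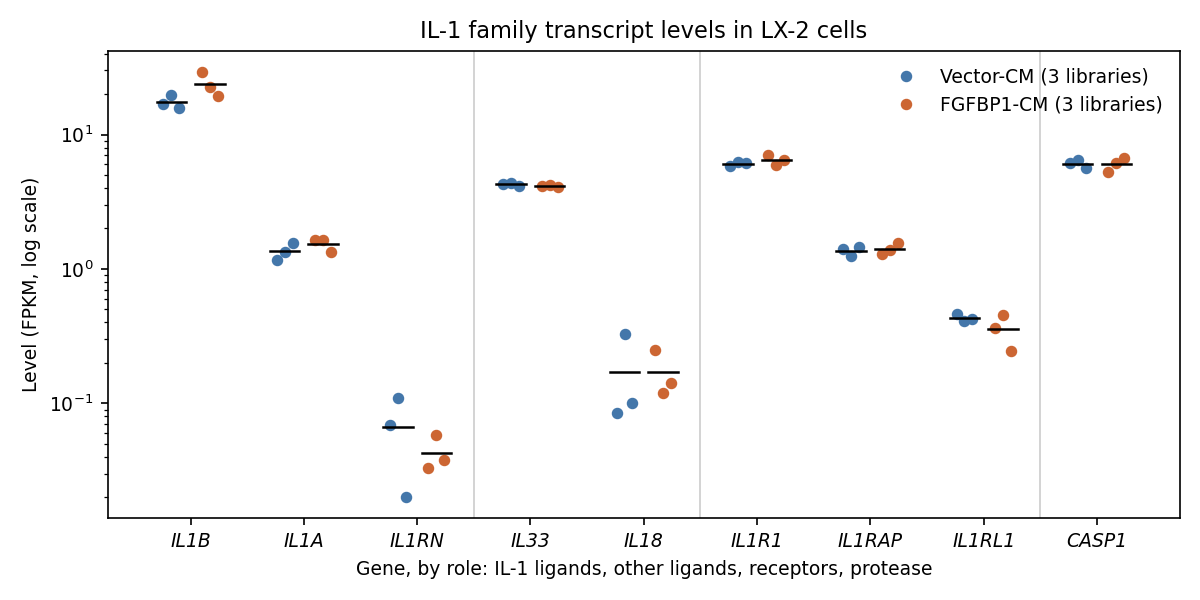
Levels of the 9 IL-1 family genes by role. Each point is the FPKM of 1 library on a log axis, 3 for Vector-CM and 3 for FGFBP1-CM, and the bar is the group mean. IL1B stands highest at 15.8 to 29.2 FPKM, IL1R1, CASP1 and IL33 lie between 4.08 and 7.03 FPKM, and IL18 and IL1RN are lowest.

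IL1R1, the signaling receptor of both IL-1 forms, was the most abundant receptor member. Its levels were 41.8, 44.9 and 44.8 CPM in Vector-CM and 48.9, 42.2 and 45.6 CPM in FGFBP1-CM, and the ranges overlapped. The log2 fold change was 0.06 (SE 0.0763, adjusted p = 0.692, edgeR), and its 95% interval, from -0.11 to 0.22, reached 1.17-fold up. Without FGFBP1-CM replicate 2 the estimate was 0.11 and the interval reached 0.28.

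IL1RAP, the accessory chain shared by the IL-1 and IL-33 receptors, was read at 16.3, 14.7 and 17.2 CPM in Vector-CM and 14.6, 16.1 and 17.9 CPM in FGFBP1-CM. The lowest and the highest library were both FGFBP1-CM. Its log2 fold change was 0.01 (SE 0.109, 95% interval -0.23 to 0.24; adjusted p = 0.977, edgeR).

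IL1RL1 encodes ST2, the receptor of IL-33, as a membrane-bound and a soluble form that gene counts do not separate. It was read at 2.68, 2.39 and 2.49 CPM in Vector-CM and 2.06, 2.64 and 1.41 CPM in FGFBP1-CM. FGFBP1-CM replicates 1 and 3 were below all Vector-CM libraries, and replicate 2 was within their range. With 23 to 48 reads per library, the log2 fold change of -0.31 had a wide 95% interval of -0.83 to 0.20 (SE 0.237, adjusted p = 0.467, edgeR). It was -0.12 without FGFBP1-CM replicate 3 and -0.53 without replicate 2.

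CASP1, which encodes the inflammasome protease, was read at 23.0, 24.0 and 21.3 CPM in Vector-CM and 19.1, 22.7 and 24.7 CPM in FGFBP1-CM. Here too the FGFBP1-CM libraries held both the lowest and the highest value. The log2 fold change was -0.04 (SE 0.104, 95% interval -0.27 to 0.18; adjusted p = 0.853, edgeR).

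**Figure D3:**
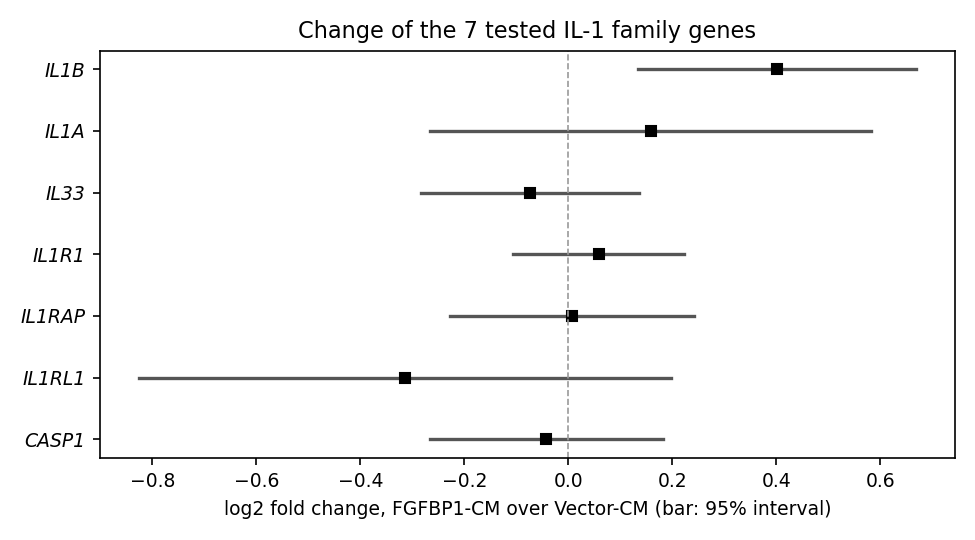
Change of the 7 tested members. Squares give the log2 fold change of FGFBP1-CM over Vector-CM and bars its 95% interval in edgeR. The interval of IL1B, 0.13 to 0.67, lies above 0, and the intervals of the other 6 genes include 0.

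Across the 7 tested members 4 log2 fold changes were above 0 and 3 below, with a median of 0.01, while 50.7% of all tested genes were above 0. By mean FPKM over the 6 libraries the order was IL1B (20.5 ± 4.83), IL1R1 (6.26 ± 0.434), CASP1 (6.06 ± 0.515), IL33 (4.20 ± 0.0930), IL1A (1.45 ± 0.197), IL1RAP (1.39 ± 0.109), IL1RL1 (0.395 ± 0.0809), IL18 (0.171 ± 0.0966) and IL1RN (0.0547 ± 0.0323; SD, n = 6). IL1R1 and CASP1 were not separated, since IL1R1 was the higher in 2 of 6 libraries, and neither were IL1A and IL1RAP, where IL1A was the higher in 4 of 6. IL1RL1 was above IL18, and IL18 above IL1RN, in 6 of 6 libraries, although their ranges over libraries overlapped. The other neighbours in the order did not overlap. IL1B was above 86.8% of tested genes in mean FPKM.

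Within the summed FPKM of the 11 family ligands, IL1B took 75.0% on average (71.1% to 80.5%), IL33 15.9% and IL1A 5.40%. IL37, an anti-inflammatory ligand, took 2.22%, with 5 to 12 reads per library. Among the 10 family receptors, IL1R1 and SIGIRR, an inhibitory receptor of the family, took the most. Their shares were close in Vector-CM, 38.4% ± 2.16 for IL1R1 and 38.6% ± 2.10 for SIGIRR, and were 43.8% ± 4.72 and 32.2% ± 4.35 in FGFBP1-CM (SD, n = 3). For both shares the group ranges overlapped. The highest IL1R1 share, 48.8%, and the lowest SIGIRR share, 27.6%, were both in FGFBP1-CM replicate 1. A share also moves with the other receptors in the sum, and the difference in shares was not tested. Over all 6 libraries, IL18R1, the ligand-binding chain for IL-18, took 9.48%, and IL1R2, the decoy receptor for IL-1, took 0.801%. LX-2 cells thus held transcripts of the IL-1 receptor pair, its main ligand and an inhibitory receptor, with little of the antagonist or the decoy.

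Because IL1B is best known from monocytes and macrophages, markers of myeloid cells were read in the same libraries. TYROBP, CD163 and MS4A7 had 0 counts in every library, AIF1 had 0 to 4 and ITGAM 3 to 12. CD14 had 34 to 57 reads per library, FCER1G 15 to 26, PTPRC 9 to 31, CSF1R 7 to 19 and LYZ 6 to 15. The 10 myeloid markers summed to 6.22 to 6.81 CPM in Vector-CM and 5.59 to 9.16 CPM in FGFBP1-CM. None of the 5 that could be tested passed the threshold. The 10 markers of intestinal epithelium, read for carried-over HCT116 RNA, summed to 5.06 to 7.61 CPM in Vector-CM and 4.48 to 6.15 CPM in FGFBP1-CM. Of these, 2 were tested (CDH17 and ELF3) and neither passed. Both groups received HCT116 medium, so a test between the groups cannot show whether RNA was carried over.

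The genes around the members were read as 4 lists of 68 genes, and of the 53 tested none passed the adjusted threshold. At an unadjusted p under 0.05 stood 4 higher and 9 lower, where 11.1% and 10.7% of all tested genes had one. In the list of other family genes, 4 of 14 were tested, and all 4 log2 fold changes were below 0 with a median of -0.23, against a median of 0.00 over all tested genes. SIGIRR was 22.6, 22.8 and 19.6 CPM in Vector-CM and 13.6, 19.0 and 17.1 CPM in FGFBP1-CM. These ranges did not overlap, and the lowest library was FGFBP1-CM replicate 1. Its log2 fold change was -0.39 (SE 0.122, adjusted p = 0.105, edgeR). SIGIRR passed the threshold without a filter on low counts (adjusted p = 0.0201, edgeR), where 1.44% of genes were called lower, and without FGFBP1-CM replicate 2 (adjusted p = 0.0412, edgeR), where 2.77% were called lower and 2.39% higher. SIGIRR did not pass in edgeR without FGFBP1-CM replicate 1. For IL18BP, the secreted inhibitor of IL-18, the difference was -0.34 on the log2 scale (adjusted p = 0.178, edgeR), and its exons share 675 bp with NUMA1 on the other strand. For IL18R1 it was -0.12 (adjusted p = 0.682, edgeR).

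All 15 signaling genes were tested, 8 above and 7 below 0, with a median log2 fold change of 0.03. The most abundant were IRAK1 (log2 fold change -0.05), TAB2 (0.00), MAP3K7 (0.08) and IRAK2 (-0.21, adjusted p = 0.129, edgeR), which carry the signal from the receptor to the kinase cascade. IRAK4, the first kinase recruited by MyD88, had the highest value of the list at 0.45 (SE 0.137, adjusted p = 0.102, edgeR). Its levels were 22.6, 23.1 and 21.3 CPM in Vector-CM and 39.0, 26.3 and 25.9 CPM in FGFBP1-CM, so that all FGFBP1-CM libraries were higher and replicate 1 stood apart. IRAK4 passed the threshold in DESeq2 (adjusted p = 0.0480), without a filter on low counts (adjusted p = 0.000478), and in edgeR without FGFBP1-CM replicate 2 (adjusted p = 0.0481) or 3 (adjusted p = 0.0445). IRAK4 did not pass in edgeR without FGFBP1-CM replicate 1. Of the 15 signaling genes, 4 were higher and 1 was lower without overlap of the ranges, where 12.8% and 13.2% of all tested genes were.

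In the list of inflammasome, processing and release genes, 15 of 19 were tested, 5 above and 10 below 0, with a median of -0.04. CAPN2 and CAPN1 encode calpain proteases, a class that cleaves pro-IL-1 alpha, and had log2 fold changes of 0.10 and -0.13. NEK7, which licenses NLRP3, had 0.06 and CASP4 0.00. CASP8 was 14.2, 16.1 and 14.1 CPM in Vector-CM and 24.6, 17.9 and 16.6 CPM in FGFBP1-CM, again without overlap and with replicate 1 highest. The log2 fold change of CASP8 was 0.42 (SE 0.139, adjusted p = 0.118, edgeR). CASP8 passed the adjusted threshold only without a filter on low counts (adjusted p = 0.00691, edgeR). CARD16, an inhibitory relative of CASP1, had the lowest value among genes of at least 1 CPM, -0.27 (adjusted p = 0.266, edgeR). PYCARD, with a mean of 0.712 CPM and 4 to 16 reads per library, was lower at -0.83 (adjusted p = 0.238, edgeR). It is named after its value was seen. At an unadjusted p under 0.05 stood 1 higher (CASP8) and 2 lower, where 11.1% and 10.7% of all tested genes had one. The 2 lower, GSDMD (-0.26, adjusted p = 0.0996, edgeR) and NLRP1 (-0.19, adjusted p = 0.187, edgeR), are named after their values were seen. The ranges did not overlap for 1 higher and 3 lower, where 12.8% and 13.2% of all tested genes were.

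The 20 genes known to respond to IL-1 gave 19 tested, 6 above and 13 below 0, with a median of -0.12. An unadjusted p under 0.05 was found for 2 of them in the higher direction (MMP1 and MMP3) and 4 in the lower (ICAM1, NFKBIA, TNFAIP3 and SOD2), where 11.1% and 10.7% of all tested genes had one. ICAM1 (log2 fold change -0.36, adjusted p = 0.0878, edgeR) and NFKBIA (-0.26, adjusted p = 0.110, edgeR) are named here after their values were seen. CXCL8, a neutrophil chemokine, was the most abundant at 356 ± 21.5 FPKM in Vector-CM and 366 ± 44.9 FPKM in FGFBP1-CM (SD, n = 3), which differ by 0.01 on the log2 scale. MMP1, the interstitial collagenase, was 581, 665 and 565 CPM in Vector-CM and 849, 804 and 729 CPM in FGFBP1-CM. All FGFBP1-CM libraries were above all Vector-CM libraries, and the log2 fold change was 0.40 (SE 0.0798, 95% interval 0.22 to 0.57; adjusted p = 0.0568, edgeR), the smallest p of the 4 lists. MMP1 passed the threshold in DESeq2 (adjusted p = 0.000895), without a filter on low counts (adjusted p = 7.63e-07), and in edgeR without FGFBP1-CM replicate 2 (adjusted p = 0.0335) or 3 (adjusted p = 0.0233). In edgeR without FGFBP1-CM replicate 1, 72 of 17094 genes passed, and neither MMP1 nor any other gene of the 4 lists was among them. No list gene passed in edgeR when any single Vector-CM library was left out.

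MMP3, which encodes stromelysin-1, had the highest log2 fold change of the list at 0.80 (SE 0.239, adjusted p = 0.0961, edgeR), from 22 to 74 reads per library. Its levels were 1.67, 2.75 and 1.48 CPM in Vector-CM and 3.90, 3.14 and 3.12 CPM in FGFBP1-CM, without overlap. TNFAIP3 and SOD2, the NF-kB feedback inhibitor A20 and the mitochondrial superoxide dismutase, had log2 fold changes of -0.25 (adjusted p = 0.146, edgeR) and -0.19 (adjusted p = 0.135, edgeR). CSF3, a granulocyte growth factor, had the lowest at -0.52 (adjusted p = 0.389, edgeR), with 13 to 42 reads per library. Without a filter on low counts MMP3 (adjusted p = 0.0148), TNFAIP3 (adjusted p = 0.0278) and ICAM1 (adjusted p = 0.00369) passed the threshold in edgeR. MMP3 passed the adjusted threshold in that fit only. Without FGFBP1-CM replicate 2, TNFAIP3 (adjusted p = 0.0435), ICAM1 (adjusted p = 0.0176) and NFKBIA (adjusted p = 0.0376) passed in edgeR. ICAM1 also passed in DESeq2 (adjusted p = 0.0406).

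**Figure D4:**
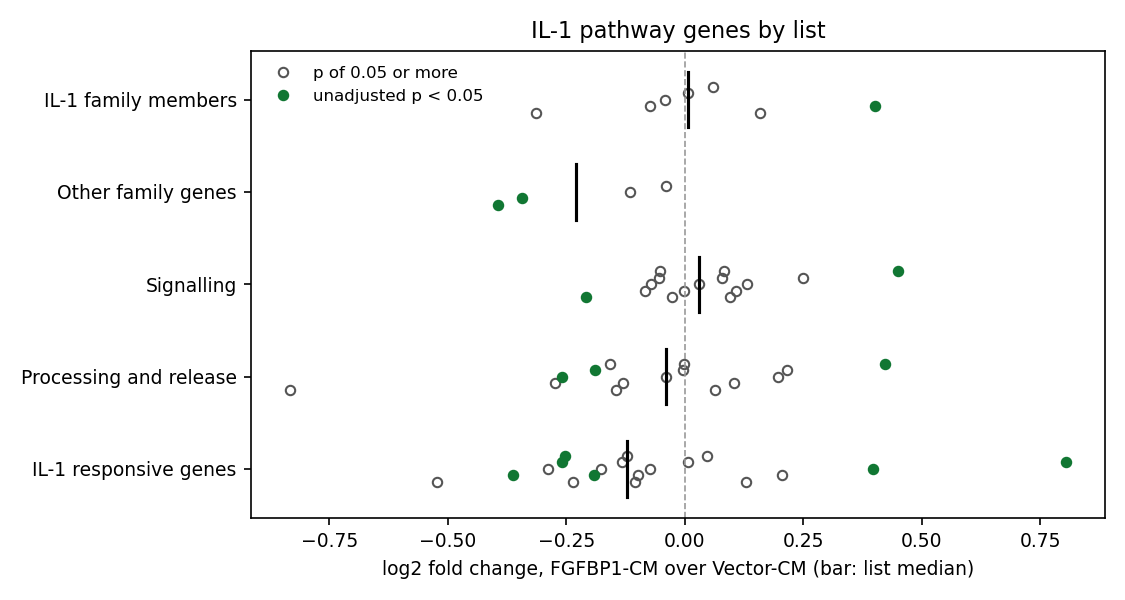
Change of the tested genes of each list. Each circle is the log2 fold change of 1 gene, FGFBP1-CM over Vector-CM, filled where the unadjusted edgeR p is under 0.05, offset vertically for legibility, and the bar is the list's median. Medians lie between -0.23 and 0.03, and none of the genes passed the adjusted threshold.

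The genes with the pattern most like that of each member over the 6 libraries were found by the root mean square difference of centred log2 CPM. For IL1B these were SHC3 (0.0293), TRIM26 (0.0441) and KIRREL1 (0.0443), against a spread of 0.271 of IL1B itself, and 5614 of 13758 genes were closer to IL1B than that spread. For IL1R1 they were SRP68, SMYD5 and THRB, for IL1RAP CEP57L1, IPO7 and LCA5, and for CASP1 ZNF608, TMPRSS5 and SMIM26. IL33 was nearest to SH3BGRL3, U2AF2 and VPS51, IL1A to SNRNP25, SLC6A16 and STRADB, and IL1RL1 to UBE2QL1, RNF112 and PRKAG1. The points share 6 libraries, so these are descriptions of likeness only.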

How the data were processed

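RNA of LX-2 cells was sequenced in 6 libraries. The authors aligned reads with HISAT2 (2.0.5 in the submitters' processing notes), counted them per gene with featureCounts (1.5.0-p3), and deposited raw counts with FPKM values beside them. The notes name hg18, whereas identifiers matched GENCODE release 29 (GRCh38) for 96.3% of genes, so coordinates come from that lookup. Gene lengths implied by the FPKM equaled the exon lengths of that release for IL1RAP, IL1RL1, IL33 and CASP1. For IL1A, IL1B, IL1RN, IL1R1 and IL18 they differed, as for IL1B with 3009 against 3096 bp. The exon blocks and overlaps given above are therefore not always those used in counting. Annotation release and strand are not given in the sources used here, and both poly(A) selection and ribosomal RNA depletion are described.

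Counts were filtered with filterByExpr, scaled by TMM and compared with the quasi-likelihood F-test of edgeR 4.0.16 in R 4.3.3, adjusted by the Benjamini-Hochberg method over 16707 genes with a threshold of 0.05. FPKM served for levels between genes. Standard errors are the log2 fold change divided by the square root of F. All members were named. From each list the genes past the threshold, the 4 highest in mean FPKM, and the highest and lowest log2 fold change at 1 CPM or more were named. For each tested member of at least 1 CPM the 3 most like genes were named. Other list genes are counted, except PYCARD and where a small count is spelled out. Members and lists were chosen with earlier results of these data known. Alternatives were RLE scaling, library size only, other filters, DESeq2 1.42.0, limma 3.58.1 on log2(FPKM + 1) and log2(FPKM + 0.1), a block for the replicate number, a GC and length correction, and leaving out each library. The procedures were tested on simulated data, in 5 draws with 200 of 16707 genes changed 2-fold. In edgeR, 84.6% of the changed genes were recovered on average and 7.39% of calls were false, above the threshold of 0.05. Smaller changes were not simulated. Libraries of 14003780 to 18508113 counts differed by more than sampling noise, so none were merged.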

Additional observations from a re-analysis of the deposited data

How the results depend on the processing

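The number of genes past the threshold, 20 in edgeR, was 38 with RLE scaling, 11 with a mean of at least 1 CPM, 1 and 5 in limma on log2(FPKM + 1) and log2(FPKM + 0.1), and 48 after the GC and length correction. Without a filter on low counts it was 1382 of 38002, with 1 of 9 members (IL1B) and 7 of 66 list genes. In DESeq2 it was 573 of 12315, with 1 of 5 members (IL1B) and 3 of 47 list genes. An unadjusted p under 0.05 gave 3630 of 16707 genes, 1 of 7 members and 13 of 53 list genes. Adding a fold of 1.2 gave 2194, 1 and 7 of the same totals. Leaving out 1 library gave 4 to 883 genes, 0 to 1 members and 0 to 6 list genes. It was 883 of 17133 genes with 6 of 54 list genes without FGFBP1-CM replicate 2, and 402 of 17155 with 2 of 55 without replicate 3. It was 72 of 17094 with 0 of 55 list genes without replicate 1, and no list gene passed without any single Vector-CM library. In the unfiltered fit the prior degrees of freedom were estimated as infinite, and the cause of the other shifts was not tested. Between libraries of one number, deviations from the group means correlated at -0.118, -0.0220 and 0.148 over 15033 genes, so the numbers were not taken to pair the samples. With the replicate number as a block 90 of 16707 genes passed, 0 of 7 members and 1 of 53 list genes (MMP1, adjusted p = 0.0394, edgeR). With the GC and length correction in the same block it was 89, 0 and 1 (MMP1) of the same totals. Among the 7 tested members, 2 turned direction. IL1RAP was -0.0421 after the GC and length correction, -0.0443 with the replicate block added, and -0.0691 to 0.0829 when a library was left out, and CASP1 was -0.126 to 0.0583 when a library was left out, above 0 only without FGFBP1-CM replicate 1. Over the 16 alternatives IL1A ranged from 0.04 to 0.28, IL1RL1 from -0.53 to -0.08, IL1R1 from 0.01 to 0.11 and IL33 from -0.14 to -0.03. The difference in the log2 ratio of IL1B to IL1A stayed above 0 in the alternatives run but ranged from 0.05 to 0.32 when a library was left out. The ratio of IL1RN to the agonists was not computed, since IL1RN had 1 to 5 reads per library. Depth limits IL1RN and IL18, which were below the count filter. Tested without it, their log2 fold changes were -0.61 (95% interval -2.10 to 0.88) and 0.06 (-0.87 to 0.98). Among members that passed the filter, IL1A and IL1RL1 had the widest intervals.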
